A study of Mus musculus with 6 samples.

Results

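Ribosome biogenesis factors are the proteins that make ribosomal RNA in the nucleolus and assemble it into the 40S and 60S subunits of the ribosome. The 39 genes described here were taken by name from a list of nucleolar proteins and RNA polymerase I subunits. All 39 were found among the 55471 genes counted. RNA was sequenced from the livers of 6 male wild-type C57BL/6J mice, an inbred laboratory strain, 3 of them fasted for 4 h and 3 for 16 h. Every liver was fasted, so the 4 h group is a short fast and not a fed state. The labels do not state an age. Each library was treated as 1 mouse, as the submitters' n of 3 a group implies. Whole liver was used, so a lower level of a transcript can come from fewer cells of a type or from less RNA per cell, which cannot be told apart.

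RNA polymerase I copies the ribosomal DNA into one long precursor. Box C/D and box H/ACA ribonucleoproteins, guided by small nucleolar RNAs (snoRNAs), modify bases of the precursor, and the small subunit processome folds and cleaves its 18S part. Other factors build the 60S particle around the 28S and 5.8S parts. The pathway uses a large share of a cell's energy and is known to be driven by growth signals such as mTORC1 and MYC. Fasting is known to shrink the liver and its ribosome content.

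After the longer fast 7 of the 39 factors were higher and none was lower, and all 39 had passed the filter on low counts. Rrp12, a 40S export and maturation factor, nearly doubled (1.93-fold), and the RNA helicase Ddx21 and the largest Pol I subunit Polr1a were 1.57-fold and 1.52-fold higher. Nol6, Nop58, Pes1 and Wdr43 rose by less, between 1.27-fold and 1.35-fold. Among all 13812 genes tested, 9.18% were higher at the same threshold (edgeR's quasi-likelihood test, Benjamini-Hochberg adjusted p under 0.05) and 9.51% were lower, against 17.9% and 0% of the members. The median log2 fold change of the members was 0.19, against -0.028 over all tested genes, and 28 members had a positive value and 11 a negative one. At an unadjusted p under 0.05, edgeR had 14 members higher and 0 lower, against 16.2% and 17.3% of all tested genes. The 95% intervals of the members had a median width of 0.54 on the log2 scale. A log2 change of 1 lay inside the interval of 1 member, Rrp12, and a change of -1 inside none of the 39.

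The count of 7 depended on single libraries. It was 4, 5 and 11 without replicate 1, 2 or 3 of the 4 h fast and 4, 3 and 3 without replicate 1, 2 or 3 of the 16 h fast, while Rrp12, Ddx21 and Polr1a passed in each of these 6 fits. As shares of the 39 members these counts are 10.3%, 12.8% and 28.2%, where 7.40%, 8.19% and 11.1% of all genes were higher, and 10.3%, 7.69% and 7.69%, where 5.82%, 4.74% and 4.77% of all genes were higher. Without replicate 1 of the 4 h fast or replicate 2 or 3 of the 16 h fast the members' share was near that of all genes. DESeq2 called 11 members higher and none lower, where 11.0% of all genes with a DESeq2 adjusted p were higher. In 20 members the 3 values after 16 h all lay above the 3 values after 4 h, and in 2 they all lay below, where each of these patterns held for 19.7% of all tested genes. Of the 20 members, 13 did not pass the test.

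**Figure D1:**
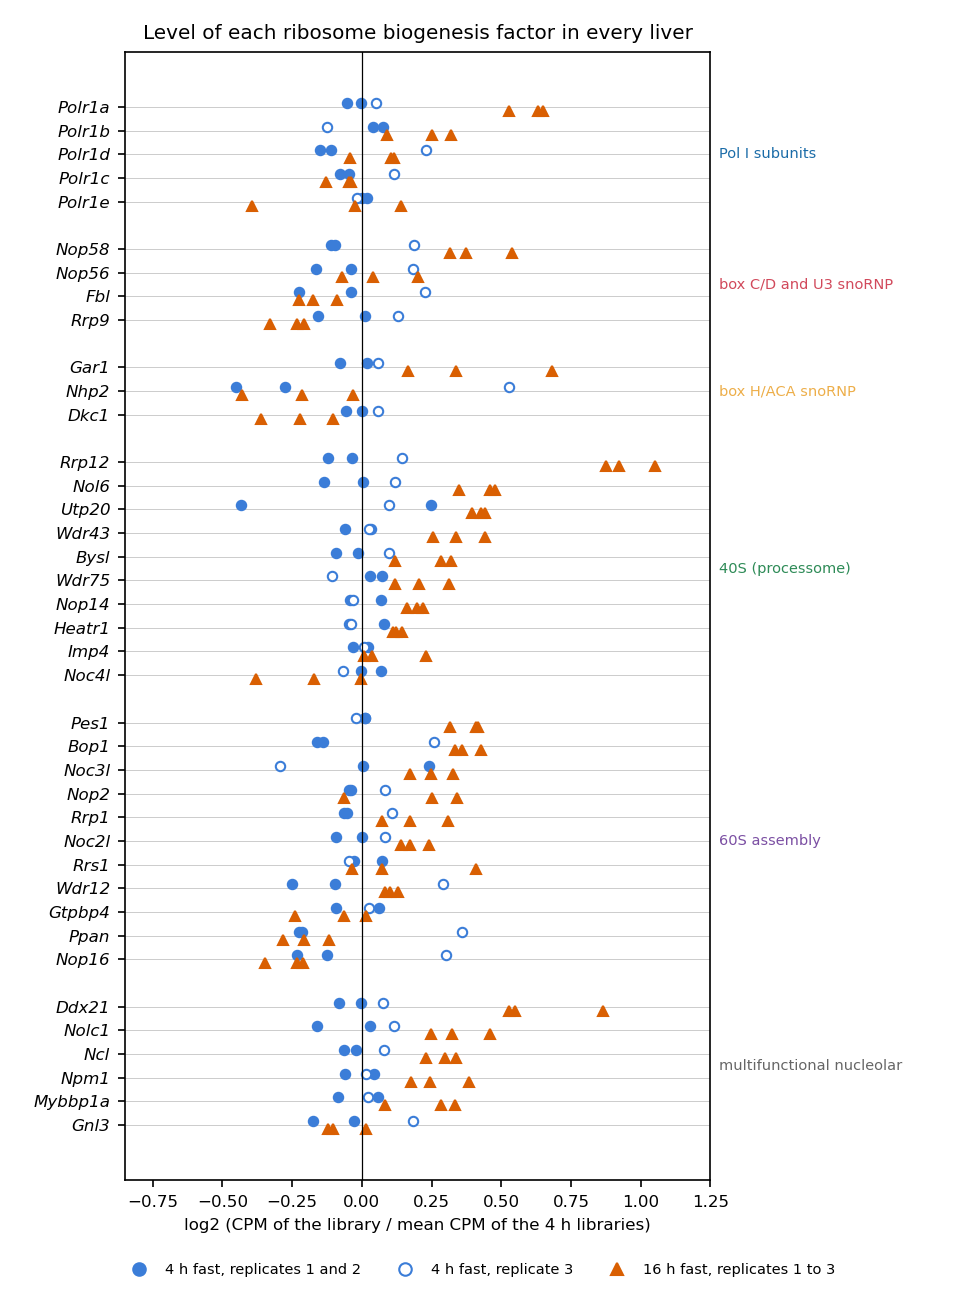
Level of the 39 factors in each liver, as log2 of a library's counts per 1000000 counts (CPM) over the mean of the 4 h libraries; circles are the 4 h livers, with replicate 3 open, and triangles the 16 h livers. The triangles of Rrp12, Ddx21 and Polr1a lie well to the right of their circles, while the open circle of Nhp2 lies far to the right of its mates at 39.6 CPM.

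Replicate 3 of the 4 h fast stood apart from the other livers, at -33.46 on the second principal component against 14.05 and 26.50 for its mates. The 8 lung epithelium markers summed to 186 CPM there and to 5.86 to 8.43 CPM in the other 5 livers, and the 10 neutrophil markers to 17.6 CPM against 2.44 to 5.54 CPM. The 8 hepatocyte markers summed to 92500 to 104000 CPM in the 6 livers, mostly from Alb, with 4 of the 8 called higher after 16 h and 1 lower. Of 7 stellate cell and fibroblast markers 2 were lower after 16 h, and of 9 Kupffer cell and macrophage markers 1 was lower, with sums of 174 to 260 and 133 to 200 CPM for the first list and 125 to 229 and 115 to 139 CPM for the second. Proliferation markers summed to 38.8 to 40.5 CPM after 4 h and 30.5 to 34.1 CPM after 16 h over 8 genes, without a call for any of the 7 tested. Of the 39 factors, 24 had the highest value of their group in replicate 3 of the 4 h fast. Replicate 2 of the 16 h fast had the highest value of its group in 22, so this count alone does not set a library apart. Results without replicate 3 of the 4 h fast are given below for some members only, and values of the others may depend on it too. The part of these marker changes in the members' results was not tested. Depth was 15173653 to 26572532 counts per library, and a member had between 77 and 6731 counts in a library.

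Promoter windows were found for 33 of the 39 members in RefSeq's table for GRCm38.p6, each with 250 bases before the start of the gene and 50 after it. No window was found for Fbl, Bop1, Rrs1, Npm1 or the risers Rrp12 and Nol6, so these were not searched. The E-box CACGTG, which reads the same on both strands and is the textbook site of MYC with its partner MAX, was present in 6 of the 33 (18.2%). It was present in 7.15% of all 32851 windows, and in 9.67% of the 13158 windows whose gene was tested. The 6 stretches are shown because they include risers and non-risers alike, with the E-box in capitals and up to 12 bases on each side, read 5′ to 3′ on the strand of the gene.
Pes1: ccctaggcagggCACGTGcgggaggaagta
Wdr43: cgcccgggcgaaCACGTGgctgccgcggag
Nop2: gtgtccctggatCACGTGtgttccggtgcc
Imp4: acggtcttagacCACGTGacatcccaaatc
Mybbp1a: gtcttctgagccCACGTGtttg
Utp20: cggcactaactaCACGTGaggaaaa
The Pes1 stretch lies at chr11:3963965-3963994 (plus strand), where the motif begins 3 bases after the start, and that of Wdr43 at chr17:71616220-71616249 (plus strand), 18 bases after it. In Nop2 (chr6:125131811-125131840, plus strand) and Imp4 (chr1:34439696-34439725, plus strand) it begins 60 and 121 bases before the start. Mybbp1a (chr11:72441355-72441376, plus strand) and Utp20 (chr10:88826765-88826789, minus strand) hold it 41 and 38 bases after the start, close to the end of the window. Of these 6, only Pes1 and Wdr43 passed the test for a change.

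Among the other motifs, CCGGAA, the core read by ETS factors, stood in 13 of the 33 windows on either strand (39.4%), against 14.9% of all windows and 26.0% of those of tested genes. Nop58 was its 1 carrier among the 5 risers that had a window. CCAAT was found in 24.2% of the member windows and 37.5% of those of tested genes. No member window held the palindromic motif of ZBTB33 or that of NRF1, which stood in 0.904% and 1.95% of the windows of tested genes. A match says only that these letters are present.

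**Figure D2:**
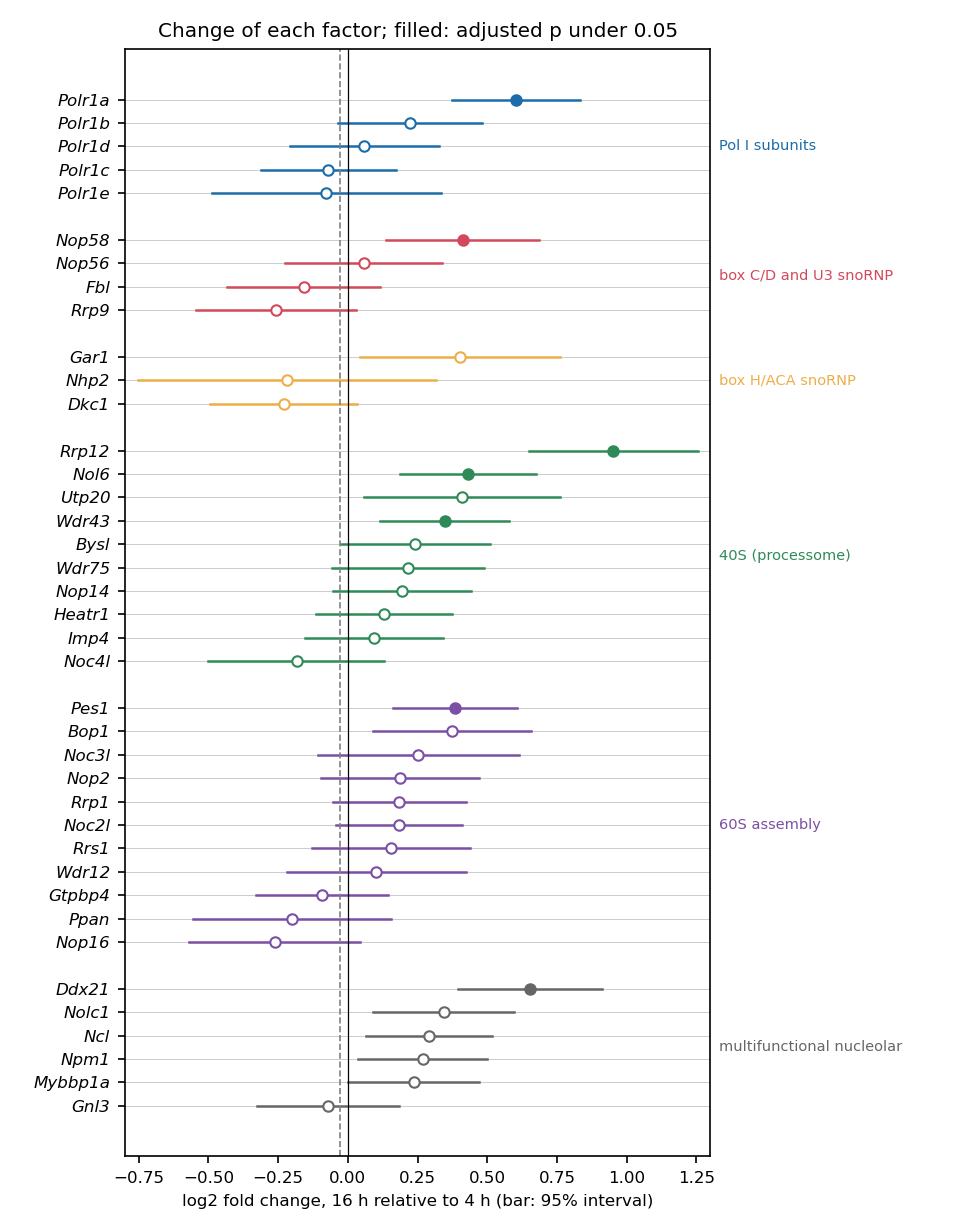
Log2 fold change of each factor, 16 h relative to 4 h, with its 95% interval, by role; filled circles passed the test, and the dashed line is the median of all tested genes at -0.028. The 7 filled circles lie between 0.35 for Wdr43 and 0.95 for Rrp12, and no circle on the left side is filled.

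RNA polymerase I was represented by 5 subunits (median log2 fold change 0.059), with 1 rise (20.0%, against 9.18% of all tested genes). Polr1a encodes the largest, catalytic subunit and lies on chromosome 6 at 71909053 to 71984935 of GRCm38. It was at 20.1, 20.8 and 21.6 CPM in the 4 h livers and 30.0, 32.3 and 32.7 CPM in the 16 h livers, with no overlap between the groups (log2 fold change 0.60 ± 0.10 SE, edgeR adjusted p = 0.00245). Polr1b, the second-largest subunit, which closes the active site with Polr1a, did not pass, at 19.6, 20.1 and 17.5 CPM and 20.3, 23.8 and 22.7 CPM (0.22 ± 0.12). The 16 h values lay above the 4 h values here too, by a narrow gap.

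Polr1c and Polr1d form the assembly platform that Pol I has in common with RNA polymerase III. Neither passed: Polr1c had 22.1 ± 1.6 and 21.0 ± 0.74 CPM (mean ± SD, n = 3) and Polr1d 42.2 ± 6.4 and 44.0 ± 2.6 CPM. Polr1e, the homologue of the yeast initiation and elongation subunit A49, was the lowest of the 5 in CPM, at 5.03, 4.96 and 4.90 after 4 h and 3.78, 4.88 and 5.47 after 16 h. The ratio of Polr1a to Polr1c within a library, which no scaling factor touches, was 0.946 over the 4 h livers and 1.51 over the 16 h livers. Its log2 value was -0.081 ± 0.057 after 4 h and 0.59 ± 0.014 after 16 h (SD, n = 3), with no overlap (exact two-sided permutation p = 0.10, the smallest that 3 against 3 allows, and 0.12 after Benjamini-Hochberg adjustment over 6 pairs chosen after their values were seen). The Polr1a to Polr1b ratio went from 1.09 to 1.42, with the same p-values.

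The box C/D particle carries the 2′-O-methyltransferase fibrillarin (Fbl) on a pair of scaffold proteins, Nop56 and Nop58, and Rrp9 belongs to the U3 form of the particle. The median of these 4 genes was -0.052, and 0.074 and 0.006 without replicate 3 of the 4 h fast or replicate 1 of the 16 h fast. Nop58 rose, from 17.9, 17.7 and 21.8 CPM to 23.8, 27.8 and 24.8 CPM (0.41 ± 0.12, edgeR adjusted p = 0.0403). All 16 h livers were above all 4 h livers, but the call was lost without any 1 library other than replicate 3 of the 4 h fast (edgeR adjusted p between 0.0647 and 0.161) and with upper-quartile scaling (0.0626). Nop56, its partner, had 21.2, 19.4 and 24.7 CPM and 20.7, 25.0 and 22.4 CPM and did not pass (0.056 ± 0.128). Fbl stood at 36.2, 41.2 and 49.5 CPM after 4 h and 36.2, 39.8 and 37.5 CPM after 16 h (-0.16 ± 0.12), with the highest value in replicate 3 of the 4 h fast.

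Rrp9 was one of the 2 members with all 16 h values below the 4 h values, at 11.4, 12.8 and 13.9 CPM against 10.1, 11.0 and 10.8 CPM, and it did not pass (-0.26 ± 0.13, edgeR adjusted p = 0.194). The Nop58 to Nop56 ratio was 0.878 after 4 h and 1.12 after 16 h, and that of Nop58 to Fbl 0.454 and 0.672 (exact two-sided permutation p = 0.10 for each, the smallest possible, and 0.12 adjusted over the 6 pairs). Neither ratio overlapped between the groups, but both pairs were chosen after their values were seen, so this is a description only. The genes of 7 members contain 21 annotated snoRNA genes, but these had 23 counts in total over the 6 libraries, so no snoRNA level can be read from the data.

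The box H/ACA particle makes pseudouridines with the enzyme dyskerin (Dkc1) and the small proteins Gar1 and Nhp2. None of the 3 passed by edgeR or DESeq2, and 1, Gar1, was higher at an unadjusted edgeR p under 0.05. Gar1 was at 6.50, 6.95 and 7.14 CPM after 4 h and 7.69, 11.0 and 8.68 CPM after 16 h (0.40 ± 0.16, edgeR adjusted p = 0.109). Dkc1 was at 17.6, 16.9 and 18.3 CPM and then 13.7, 16.4 and 15.1 CPM (-0.23 ± 0.12, edgeR adjusted p = 0.207), again without overlap between the groups. The Gar1 to Dkc1 ratio went from 0.39 to 0.601 (exact two-sided permutation p = 0.10, 0.12 adjusted over the 6 pairs). This pair too was chosen after its values were seen. Nhp2 depended on 1 library: its 4 h values were 22.7, 20.1 and 39.6 CPM, its 16 h values 20.4, 23.7 and 26.9 CPM, and its log2 fold change turned from -0.22 to 0.15 without replicate 3 of the 4 h fast.

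The 40S factors held 3 of the 7 rises. Of 10 genes, 3 passed the test (30.0%, against 9.18% of all tested genes higher), with a median of 0.23. In 8 the groups did not overlap, each time with 16 h higher, a pattern that held for 19.7% of all tested genes. Rrp12, on chromosome 19 at 41862851 to 41896173, had the largest change of all members, from 6.50, 6.11 and 7.35 CPM to 12.2, 12.6 and 13.8 CPM (0.95 ± 0.14, edgeR adjusted p = 9.22e-04). Leaving out single libraries kept it between 0.90 and 1.04. Nol6, a processome protein, went from 20.9, 23.0 and 24.9 CPM to 29.2, 31.9 and 31.5 CPM (0.43 ± 0.11, edgeR adjusted p = 0.0203). Wdr43, a subunit of the UTP-A complex that binds the young precursor first, went from 25.8, 24.2 and 25.7 CPM to 30.1, 31.9 and 34.3 CPM (0.35 ± 0.10, edgeR adjusted p = 0.0402).

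Both of the smaller rises were close to the threshold. Nol6 lost its call without replicate 1 of the 4 h fast or replicate 2 or 3 of the 16 h fast (edgeR adjusted p = 0.0656, 0.0869 and 0.0836). Wdr43 kept it only without replicate 3 of the 4 h fast, with edgeR adjusted p between 0.064 and 0.165 in the other 5 such fits, and lost it with plain library totals (0.052) and upper-quartile scaling (0.0686). Rrp12 alone passed in this group without replicate 2 or 3 of the 16 h fast.

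Utp20, a very large scaffold of the processome, was at 16.0, 9.98 and 14.4 CPM after 4 h and 17.7, 18.3 and 18.1 CPM after 16 h (0.41 ± 0.16, edgeR adjusted p = 0.0979). Its spread lay in the 4 h group, and it passed without replicate 1 of that group (0.0445). The UTP-A subunits Heatr1 and Wdr75, the processome protein Nop14 and the 40S maturation factor Bysl had log2 fold changes of 0.13 to 0.24, all without overlap and none passing. Imp4, part of the trimer that bridges U3 and the precursor, had 20.4 ± 0.38 and 21.7 ± 1.9 CPM (0.094 ± 0.113). Noc4l, which works with Nop14 on the 40S particle, was the 1 member of this group with a negative value (-0.18 ± 0.14).

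Among 11 factors of 60S assembly 1 rose (median 0.18), a share of 9.09% that is close to the 9.18% of all genes. Pes1 is part of the PeBoW complex with Bop1 and Wdr12, which is needed to process the precursor of the 28S and 5.8S RNAs. It was at 22.4, 22.4 and 21.9 CPM after 4 h and 27.7, 29.7 and 29.5 CPM after 16 h (0.38 ± 0.10, edgeR adjusted p = 0.0234). The groups were far apart relative to their spread, yet the call was lost without replicate 1 of the 4 h fast (edgeR adjusted p = 0.0533) or any 1 of the 16 h libraries (0.0512, 0.0954 and 0.0944).

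Bop1 had a change of the same size (0.37 ± 0.13) and missed the threshold (edgeR adjusted p = 0.0657), with 20.6, 20.9 and 27.5 CPM after 4 h and 29.5, 29.0 and 30.9 CPM after 16 h. It passed without replicate 3 of the 4 h fast (0.54, edgeR adjusted p = 0.00199), with DESeq2 (adjusted p = 0.0482) and with the replicate number as a block (edgeR adjusted p = 0.0436). The third PeBoW member, Wdr12, was at 13.7, 12.3 and 17.9 CPM and then 16.0, 15.7 and 15.5 CPM (0.10 ± 0.15), so its groups overlapped through that same library. The Pes1 to Wdr12 ratio, 1.54 and 1.84, overlapped between the groups (exact two-sided permutation p = 0.20, also after adjustment).

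Nop2 methylates a cytosine of 28S rRNA, Rrs1 helps to bring the 5S particle into the 60S subunit, and Noc2l and Noc3l are partners in its maturation. These 4 genes had log2 fold changes of 0.16 to 0.25 and did not pass. For Noc2l, 20.9% of its exon bases lie under the antisense gene Samd11, so its value is uncertain. Rrp1, the most abundant of the 60S group, had 91.3 ± 6.1 and 104 ± 8.5 CPM (0.18 ± 0.11). The negative values in this group belonged to the GTPase Gtpbp4 (-0.093 ± 0.108), to Ppan (-0.20 ± 0.16) and to Nop16 (-0.26 ± 0.14), none of which passed. Ppan and Nop16 were highest in replicate 3 of the 4 h fast, at 23.4 and 42.6 CPM, and Ppan had a value of 0.028 without that library.

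The multifunctional nucleolar proteins were the most abundant group (median 0.28), and 1 of 6 passed the test (16.7%, against 9.18% of all tested genes higher). Ddx21, a helicase that couples Pol I transcription to early processing, went from 37.6, 35.6 and 39.7 CPM to 54.3, 68.5 and 55.1 CPM (0.65 ± 0.12, edgeR adjusted p = 0.00311). It lies on chromosome 10 at 62580251 to 62602281, and leaving out single libraries kept it between 0.54 and 0.72. Nucleolin (Ncl), which binds the young precursor, was the most abundant member in CPM, at 222, 215 and 238 CPM and then 264, 284 and 277 CPM (0.29 ± 0.10, edgeR adjusted p = 0.070). Nucleophosmin (Npm1), a main protein of the outer, granular zone of the nucleolus, was at 155, 144 and 152 CPM and then 178, 196 and 170 CPM (0.27 ± 0.11, edgeR adjusted p = 0.0984).

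Both sets of values were free of overlap and fell short of the threshold. Ncl, Npm1 and Nolc1, a chaperone of snoRNA particles, passed with DESeq2 (adjusted p = 0.0168, 0.0479 and 0.0496) and by edgeR without replicate 3 of the 4 h fast (edgeR adjusted p = 0.0137, 0.0443 and 0.0162). Nolc1 had 24.4, 21.4 and 25.9 CPM after 4 h and 28.4, 32.9 and 29.9 CPM after 16 h (0.34 ± 0.12, edgeR adjusted p = 0.0595). Mybbp1a, a nucleolar regulator of ribosomal RNA transcription, had 57.8 ± 3.0 and 68.2 ± 6.0 CPM (0.24 ± 0.11). Gnl3, or nucleostemin, a GTPase that moves in and out of the nucleolus, had 35.7 ± 4.5 and 34.0 ± 1.8 CPM (-0.070 ± 0.116). Npm1 has processed pseudogenes, so its value is uncertain.

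Levels of different genes were compared per kilobase of coding sequence, as means of the 4 h livers. They ran from 1.61 CPM per kb for Utp20 to 172 for Npm1, with Ncl and Polr1d next at 106 each. Nop16, Rrp1 and Nhp2 followed at 64.7, 61.6 and 59.9, and Fbl at 43.1. Rrp12 at 1.71 and Heatr1 at 2.60 CPM per kb also stood at the low end. After 16 h Rrp12 had risen to 3.32 CPM per kb, above Heatr1 at 2.84. Neighbours such as Ncl and Polr1d, or Nop16 and Rrp1, cannot be ranked, since untranslated parts of the transcripts are not in the length used. The sum of all 39 members was 1210 to 1367 CPM in the 4 h livers and 1388 to 1529 CPM in the 16 h livers, of which Ncl and Npm1 made up 28.5% to 31.8%.

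**Figure D3:**
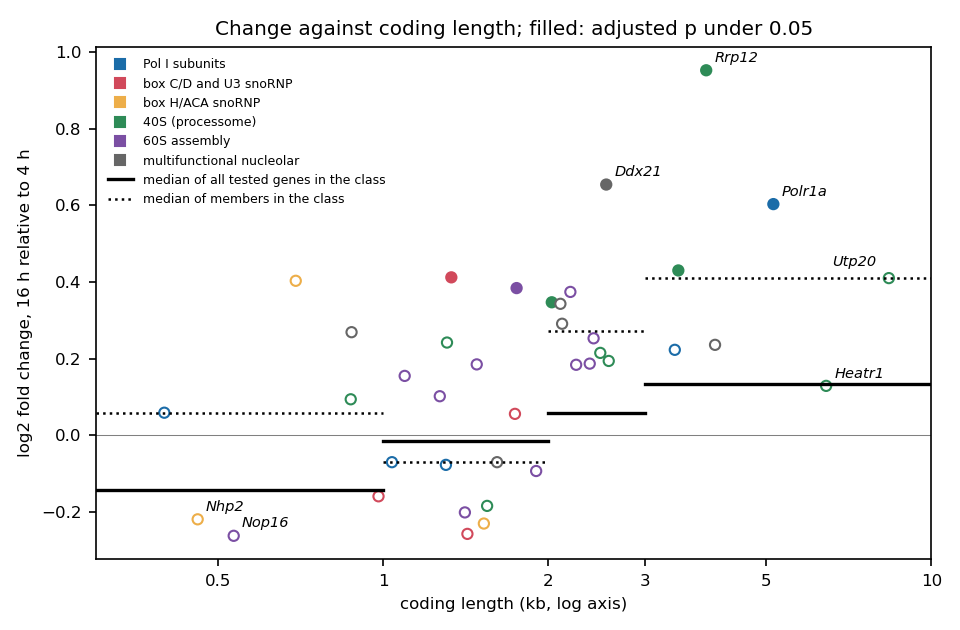
Log2 fold change of each factor, 16 h relative to 4 h, against its coding length on a log axis; solid lines are the medians of all tested genes in 4 length classes and dotted lines those of the members. All members with at least 2 kb of coding sequence lie above 0, and the solid lines climb from -0.14 under 1 kb to 0.13 over 3 kb.

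Of the 17 with at least 2 kb, all 17 had a positive log2 fold change and 5 rose, while of the 22 shorter ones 11 were positive and 2 rose. Of all tested genes 5.9% were higher under 1 kb, 10.1% at 1 to 2 kb, 10.7% at 2 to 3 kb and 16.2% over 3 kb, where 0 of 7, 2 of 15, 2 of 10 and 3 of 7 members were. Over all tested genes with a coding length the median was -0.14 in 3900 genes under 1 kb, -0.015 in 4803 of 1 to 2 kb, 0.058 in 1896 of 2 to 3 kb and 0.13 in 1676 over 3 kb. Medians of the members in these classes were 0.059, -0.070, 0.27 and 0.41. Replicate 3 of the 4 h fast differed from its mates by length as well, with a median log2 difference of 0.18 under 1 kb and -0.21 over 3 kb. Without it the medians of all genes were -0.046, 0.002, 0.033 and 0.094, and those of the members 0.15, 0.039, 0.29 and 0.46. The part of coding length in the changes of single members was not tested.

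**Figure D4:**
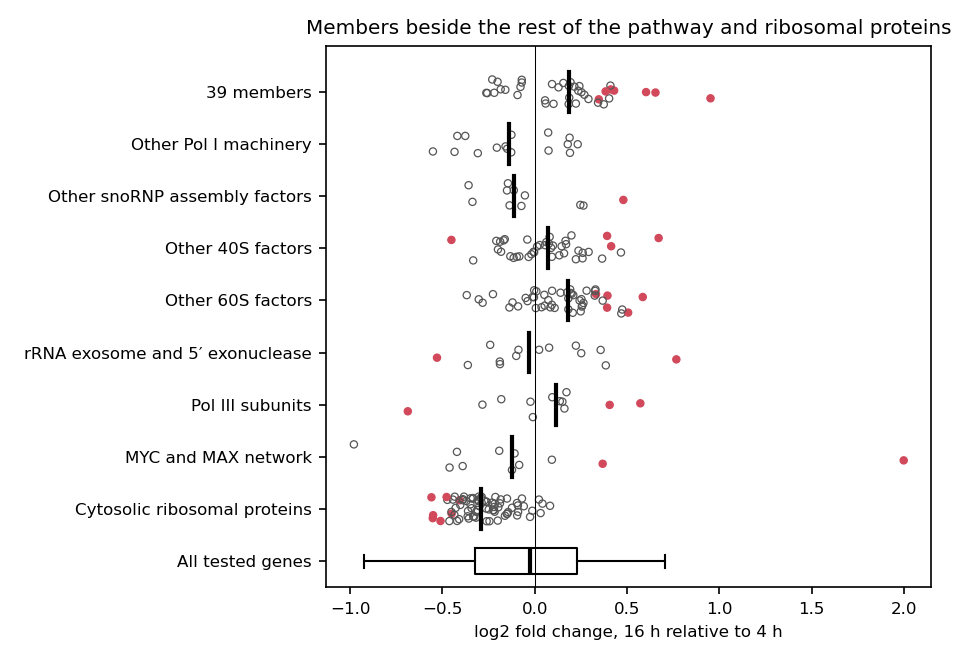
Log2 fold change, 16 h relative to 4 h, of each gene in the members and 8 related lists, with filled points for genes that passed the test and a bar at each median; the box of all tested genes spans the quartiles and its whiskers the 5th to 95th percentile. The members and the other 60S factors have medians of 0.19 and 0.18, and the cytosolic ribosomal proteins lie almost wholly left of 0, with a median of -0.29.

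The rest of the ribosome biogenesis pathway was taken from lists of 133 further genes, of which 132 were tested. Of these, 10 rose (7.58%) and 2 fell (1.52%), against 9.18% and 9.51% of all tested genes, and their median was 0.074. The rises numbered 4, 8 and 14 without replicate 1, 2 or 3 of the 4 h fast and 4, 2 and 2 without replicate 1, 2 or 3 of the 16 h fast. The falls numbered 1 without replicate 3 of the 4 h fast or 2 of the 16 h fast and 0 without replicate 1 or 3 of the 16 h fast. Of 49 other 60S factors 5 rose, a share of 10.2% that is close to the 9.18% of all genes (median 0.18). None of them fell, also not by DESeq2 or at an unadjusted edgeR p under 0.05. At that unadjusted threshold 11 of the 49 were higher, against 16.2% of all tested genes. All 16 h values lay above all 4 h values in 19 of the 49 and below in 2, where each pattern held for 19.7% of all tested genes. Ftsj3, a nucleolar rRNA processing factor, rose from 45.6 ± 3.3 to 68.5 ± 5.5 CPM (0.58 ± 0.11, edgeR adjusted p = 0.00358), and Urb2 from 5.27 ± 0.30 to 7.49 ± 0.75 CPM (0.51 ± 0.16, edgeR adjusted p = 0.0449), a call lost without any 1 library. The most abundant of that list, Nop53, did not pass (-0.049 ± 0.13). Without replicate 1 or 2 of the 4 h fast 2 and 3 of the list rose, and 1 without any 1 of the 16 h libraries.

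Of 42 other 40S factors 3 rose (7.14%) and 1 fell (2.38%), against 9.18% and 9.51% of all tested genes (median 0.070). Tsr1, a late 40S assembly factor with 32.3% of its exon bases under other genes and so an uncertain value, went from 8.68 ± 2.22 to 13.8 ± 0.64 CPM (0.67 ± 0.18, edgeR adjusted p = 0.0232). Ltv1, a factor of the same late steps, had 12.8 ± 0.94 and 17.1 ± 1.4 CPM (0.41 ± 0.12, edgeR adjusted p = 0.0398). Rcl1, a processome protein that is the most abundant of the list, fell from 181 ± 23.7 to 133 ± 16.6 CPM (-0.45 ± 0.13, edgeR adjusted p = 0.0342). The list had 7 rises without replicate 3 of the 4 h fast, 1 without replicate 1 of either group, and 0 without replicate 2 or 3 of the 16 h fast, and no fall without replicate 2 of the 4 h fast or replicate 1 or 3 of the 16 h fast.

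The remaining machinery showed few calls. Of 16 other genes of Pol I transcription none passed (median -0.14), and no member of that list was higher and 2 lower at an unadjusted p under 0.05, with 1 lower by DESeq2. Without replicate 1 or 2 of the 4 h fast, edgeR had 1 and 2 of them lower. Ubtf, the rDNA-binding factor that opens ribosomal genes, had 88.6 ± 6.2 and 79.5 ± 0.73 CPM (-0.16 ± 0.10). Of 11 snoRNP assembly factors 1 rose (9.09%, against 9.18% of all tested genes), the chaperone subunit Rpap3 (0.48 ± 0.15, edgeR adjusted p = 0.039). Rpap3 lost its call without replicate 1 or 3 of the 4 h fast or replicate 2 or 3 of the 16 h fast (edgeR adjusted p = 0.0617, 0.0526, 0.156 and 0.106). Nop10, the third small protein of the box H/ACA particle, did not pass (-0.36 ± 0.18). In the exosome and exonuclease list the nuclear 5′ to 3′ exonuclease Xrn2 rose from 31.0 ± 2.7 to 52.8 ± 6.1 CPM (0.77 ± 0.12, edgeR adjusted p = 0.00136) and kept its call without any 1 library. Exosc8, an exosome ring subunit, fell (-0.53 ± 0.17, edgeR adjusted p = 0.0478), a call lost without any 1 library.

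RNA polymerase III, which makes 5S ribosomal RNA and transfer RNAs, had 2 rises and 1 fall among 12 genes (median 0.12). These are shares of 16.7% and 8.33%, against 9.18% and 9.51% of all tested genes. Polr3k, a small subunit that acts in termination, fell from 17.6 ± 0.95 to 10.9 ± 1.6 CPM (-0.69 ± 0.14, edgeR adjusted p = 0.00555), and this held without any 1 library. Crcp and Polr3e rose by 0.57 ± 0.16 and 0.41 ± 0.12 (edgeR adjusted p = 0.0283 and 0.0318). Neither passed without replicate 2 of the 4 h fast or replicate 2 or 3 of the 16 h fast, nor Crcp without replicate 1 of the 4 h fast, nor Polr3e without replicate 1 of the 16 h fast. Of 11 genes of the MYC and MAX network (median -0.12) 2 rose (18.2%, against 9.18% of all tested genes). These were the MYC antagonists Mxd3, from 0.132 ± 0.023 to 0.537 ± 0.0046 CPM (2.0 ± 0.51, edgeR adjusted p = 0.019), and Mxi1, from 21.4 ± 2.0 to 27.7 ± 1.8 CPM (0.37 ± 0.12, edgeR adjusted p = 0.0463). Mxd3 rests on very low levels, and neither of them passed without replicate 1 of the 4 h fast or without any 1 of the 16 h libraries, nor Mxi1 without replicate 2 of the 4 h fast. Mxd4, the most abundant of the list, did not pass, with 67.8 ± 7.6 and 62.9 ± 2.0 CPM (-0.11 ± 0.11). Of the 11 values 8 were negative. At an unadjusted edgeR p under 0.05, 2 genes were higher and 3 lower, against 16.2% and 17.3% of all tested genes. All 16 h values lay above all 4 h values in 2 genes and below in 4, where each pattern held for 19.7% of all tested genes. Myc, chosen after its values were seen, was at 23.3, 8.88 and 4.07 CPM in the 4 h livers and 8.62, 8.19 and 9.95 CPM in the 16 h livers, so its spread lay within the 4 h group (-0.46 ± 0.63).

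The cytosolic ribosomal proteins, the structural products that these factors assemble, had negative values where most members had positive ones. Of 78 listed genes 77 were tested, of which none rose, also not by DESeq2 or at an unadjusted edgeR p under 0.05, and 7 fell (9.09%; median -0.29), a share close to the 9.51% of all genes. At an unadjusted edgeR p under 0.05, 32 of the 77 were lower, against 17.3% of all tested genes. All 16 h values lay below all 4 h values in 32 of them and above in 0, where each pattern held for 19.7% of all tested genes. Of the 77 values 73 were negative, against 11 of the 39 members and 7349 of all 13812 genes. Rpl35a fell from 164 ± 35.3 to 112 ± 10.6 CPM (-0.56 ± 0.15, edgeR adjusted p = 0.0232) and Rplp1 from 346 ± 84.5 to 236 ± 3.1 CPM (-0.55 ± 0.15, edgeR adjusted p = 0.0276). Rps2, the most abundant, had 755 ± 136 and 577 ± 31.1 CPM (-0.39 ± 0.14, edgeR adjusted p = 0.0664). The number that fell was 12 and 17 without replicate 1 or 2 of the 4 h fast, 0, 1 and 0 without replicate 1, 2 or 3 of the 16 h fast, and 16 with DESeq2. Without replicate 3 of the 4 h fast 6 fell, 1 rose and the median was -0.11. Ribosomal protein genes are short and have many pseudogene copies, so their values are uncertain, and whether they differ from the members as a group was not tested.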

How the data were processed

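Liver RNA of 6 mice was sequenced, 1 library each. Per the submitters' processing notes, the authors used Trimmomatic, FastQC, STAR on GRCm38 (mm10), HTSeq for counting and DESeq2. Their versions, annotation and strand setting were not stated in these notes. What the authors deposited are raw counts per Ensembl gene. Lines that name no gene, with 6.44% to 7.14% of reads outside genes and 5.78% to 6.60% ambiguous ones, were left out. Symbols and positions came from GENCODE M21, which held 99.41% of the identifiers.

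Genes passing filterByExpr (13812) were fitted with edgeR 4.0.16 in R 4.3.3 with TMM scaling and a robust quasi-likelihood test of fasting time, 2-sided, adjusted by Benjamini-Hochberg over all of them. The fit was checked on simulated counts. CPM values use TMM-scaled library sizes, and SE and 95% intervals come from the fit. Alternatives were DESeq2 1.42.0, other scalings and filters, a replicate block and leaving out each library. Library pairs of one group differed by more than sampling noise (chi-square per degree of freedom 17.3 to 68.5), so none was merged. Levels between genes use the coding length of the main GENCODE isoform in place of the planned exon length, which retained-intron models distorted. For members with several promoter windows the first was used. The shares over all windows and over those of tested genes kept every window of a gene, so the 2 sides were not counted alike.

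The rule that takes the members by name uses no measured value, but the members and lists were chosen with earlier results of these data known. All members could be named, and of each related list the 2 largest called rises and falls and the most abundant gene.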

Additional observations from a re-analysis of the deposited data

How the results depend on the processing

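The count of members higher after 16 h was 5 to 7 under the other scalings (12.8% to 17.9% of members, against 7.46% to 9.59% of all genes), 9 without a filter (23.1% against 5.81%), 8 with a stricter filter (20.5% against 10.7%), 11 with DESeq2 (28.2% against 11.0%), and 3 to 11 when single libraries were left out, and no member was called lower under any of the 13 alternatives. The members' median log2 fold change ran from 0.14 with upper-quartile scaling to 0.23 without replicate 1 of the 16 h fast. Leaving out single libraries moved the number of all genes higher after 16 h between 671 and 1594, and of all genes lower after 16 h between 696 and 1393. Of 507 values of single members under an alternative, 474 stayed on the same side of the threshold, 20 lost a call and 13 gained one. The sign changed in some alternative for 6 members, Gnl3, Nhp2, Nop56, Polr1c, Polr1e and Ppan, none of which passed. The replicate numbers were not taken as pairs. Deviations of same-numbered libraries correlated at 0.088, 0.093 and 0.045, and those of the other pairs at -0.138 to 0.066. For each 4 h library the same-numbered 16 h library had the highest value, and whether such libraries share a batch was not tested. With the replicate block 8 members were higher (20.5% against 9.79%). Of all genes 1352 were then higher and 1396 lower, against 1268 and 1313 without the block. These fits also have fewer samples, and why calls were lost without single libraries was not tested.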
